A study of Homo sapiens with 20 samples.

Results

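The genes described here were higher in cells with a knockdown of NFKBIA than in untreated cells, and lay close to their untreated level at both times after irradiation. They numbered 98 of the 20314 genes in the deposited count table. Counts were scaled to a column total of 1000000 (CPM), and each group was summarised by the log2 of its median CPM plus 0.5. A gene was a member when its median in the knockdown libraries was at least 1 CPM, its knockdown minus untreated difference was at least 0.6 on this log2 scale, and its differences at 1.5 h and at 7 days lay within 0.35 of 0. Of 13431 genes with a median of at least 1 CPM in the knockdown, 445 reached the 0.6 threshold, 393 of these were also within the bound at 1.5 h, and 98 were within it at both times. Among the 445 genes, 306 were above the bound at 7 days and 32 below it. The members were thus chosen by measured values of all 20 libraries, so the members' differences between these groups are a description and carry no test.

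The libraries came from U2OS, a human osteosarcoma cell line, with 5 replicates in each of 4 groups. These were untreated cells, cells taken 90 minutes (1.5 h) or 7 days after 20 Gy of ionising radiation, and cells without irradiation that carried an shRNA against NFKBIA. The study's methods describe inducible lentiviral hairpin vectors, selection with puromycin and induction with doxycycline. Doxycycline-treated lines with a scrambled hairpin are given there as controls, but the labels of the untreated group name neither a vector, a hairpin nor doxycycline. Whether the untreated libraries came from such a line is not given in the sources used here, and with these labels the knockdown cannot be told apart from the vector, the drugs or the selection of the line.

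NFKBIA encodes IκBα, which binds NF-κB dimers such as p65/RelA and holds them in the cytoplasm. Kinase signalling marks IκBα for destruction, NF-κB enters the nucleus, and NFKBIA is itself among the genes it switches on, which makes it a brake on the pathway. DNA damage is among the signals that set this in motion, whereas knockdown of NFKBIA lowers the inhibitor without any such signal.

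Total counts ranged from 22535659 to 40390961 per library. NFKBIA, the targeted gene, was counted at 28.2, 23.5, 27.2, 34.3 and 39.1 CPM in the untreated libraries and at 13.2, 11.4, 12.4, 12.2 and 12.7 CPM in the knockdown libraries. The groups did not overlap, and the median fell by 1.16 on the log2 scale (exact permutation test of log2 CPM, p = 0.00794, two-sided, the smallest 5 against 5 can give; edgeR adjusted p = 4.87e-09). The summed level of 15 osteoblast and mesenchymal markers was 6036 to 7303 CPM in untreated and lower, at 5136 to 5431 CPM, in knockdown libraries. Among them SPARC was counted at 1210 to 2255 CPM and VIM at 1840 to 2791 CPM over all libraries. COL1A1, a collagen of bone, was at 1700 to 2216 CPM in untreated and lower, at 588 to 668 CPM, in knockdown libraries. The summed level of 12 epithelial markers was 605 to 1108 CPM in untreated and 676 to 743 CPM in knockdown libraries, with medians of at least 1 CPM for 6 and 4 of them, and EPCAM among them was at most 4.36 CPM. The part of these markers in the members' differences was not tested. Untreated replicate 5 stood apart: 26.7% of the genes tested lay more than 0.5 (log2) from the median of the other untreated libraries, against 0.454% to 8.54% for these and at most 1.19% for every other library. Among the members, 21 lay this far in untreated replicate 5 and 14 in untreated replicate 2. The lane named in the labels moved with the groups as well: untreated libraries were on lanes 2 and 3, and knockdown libraries on lanes 5 and 6. With lane as a factor, a fit joined only through the irradiated libraries, 40 of the 98 members were called higher, 2 were called lower and 86 had a difference above 0.

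The promoters of members were searched for the κB consensus, the DNA sequence that NF-κB dimers bind, because the targeted gene holds these dimers back. RefSeq windows (GRCh38.p14) from 250 bases before to 50 after the start were found for 73 of the 98 members, or 74.5%, too few to read a share over the members. A match on either strand in any window of the gene was present in 15 of these members. It was present in 17.3% of 10738 expressed genes with a window, counted in the same way. Counted by single window, which is another measure, 11.3% of all 35116 windows held a match. Expressed means here a median of at least 1 CPM in the untreated or the knockdown libraries. The following stretches upstream of the start show 6 of the matches in capitals, read 5′ to 3′ on the strand of the gene; they were chosen after the values were seen, to cover members of different roles.
GPAT3: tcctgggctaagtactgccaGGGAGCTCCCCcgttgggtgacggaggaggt
XKR8: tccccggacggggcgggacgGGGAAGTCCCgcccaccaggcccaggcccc
ARHGEF2: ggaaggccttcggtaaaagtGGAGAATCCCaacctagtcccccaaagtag
TRIM2: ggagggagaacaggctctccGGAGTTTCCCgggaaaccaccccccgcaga
GALNT15: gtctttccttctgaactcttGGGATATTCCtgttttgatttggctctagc
IFITM3: GGAGACCCCCaacacaggggaagtctccag
They lie at chr4:83536007-83536057 (plus strand), chr1:27959913-27959962 (plus), chr1:155979233-155979282 (minus), chr4:153152228-153152277 (plus), chr3:16174477-16174526 (plus) and chr11:321081-321110 (minus). In GPAT3 a pair of overlapping matches forms 1 run, and in XKR8 the match begins 40 bases before the start. The other members with a match in the upstream bases were SH2D3C, FGF18, MEAF6, TMEM132E, IZUMO1, SPTSSB, SAMD13 and TTC23L. These letters are a description and not evidence of binding.

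The members differed widely in size of change and in level. The median difference between knockdown and untreated was 0.76 on the log2 scale, a 1.69-fold change of the medians plus 0.5, and it reached 3.14 in ENOX1. It was under 0.8 in 57 members, 0.8 to 1 in 25, 1 to 2 in 13 and over 2 in 3. At 1.5 h the median difference was -0.02, with 45 members above 0, and at 7 days it was 0.08, with 61 above 0. Most members were modestly expressed: the untreated median was under 1 CPM in 20, 1 to 10 CPM in 38, 10 to 100 CPM in 34 and at least 100 CPM in 6. Their median untreated level was 6.40 CPM, against 34.5 CPM in 13574 expressed genes, and their median gene length in the table was 4339 bases against 4845.

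Every knockdown library exceeded every untreated library in 81 members, beside 16.2% of the genes tested, and all 15 other libraries in 75, beside 4.8%. With untreated replicates 2 and 5 left out, 95 members did not overlap with the remaining untreated libraries, beside 26.1% of the genes tested, and the median difference was 0.80. All 98 members were tested by edgeR among 14992 genes, and 88 were called higher, beside 5.18% of all genes tested, of which 7.53% were called lower. The rule used this contrast, so nothing is read from that count. The replicates were closer to each other in the knockdown than in the untreated group, with a median SD over members of 0.11 against 0.23 (log2). Without untreated replicate 5 the untreated value was 0.15, and without replicates 2 and 5 it was 0.13. Summed over the members, the level was 2658 CPM ± 182 (SD, n = 5) in untreated cells, 2786 ± 82.1 at 1.5 h, 2788 ± 26.9 at 7 days and 4898 ± 77.3 in the knockdown.

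**Figure D1:**
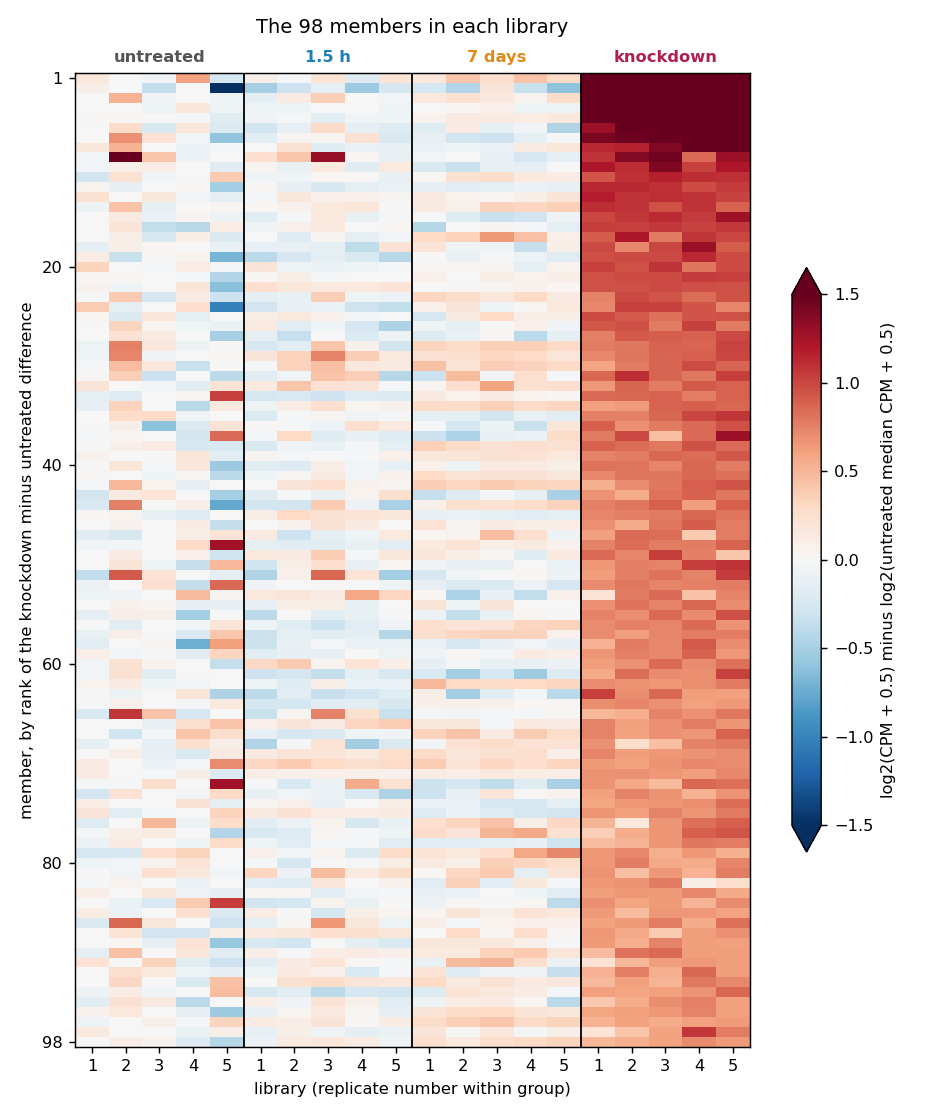
Level of each of the 98 members (vertical axis, by rank of the knockdown minus untreated difference) in each of the 20 libraries (horizontal axis, by group and replicate number), as log2(CPM + 0.5) minus the log2 of the untreated median plus 0.5, with colours that end at 1.5 in both directions. The knockdown columns are red in nearly all rows, and the untreated group holds single strongly coloured cells in replicates 2 and 5.

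Members with large differences had varied known functions. ENOX1, a cell-surface oxidoreductase, was counted at 0.586, 0.469, 0.446, 0.970 and 0.311 CPM in untreated libraries and at 8.10, 7.32, 8.05, 6.67 and 8.17 CPM in the knockdown. Each knockdown library was far above all 15 others, in which the highest value was that of untreated replicate 4. KNDC1, an exchange factor of Ras proteins, was at 3.54, 6.02, 4.21, 3.43 and 2.17 CPM in untreated and at 10.3, 10.6, 10.8, 12.4 and 12.7 CPM in knockdown libraries, a difference of 1.49 (log2). Untreated replicate 2 was the highest of its group and still well under the knockdown. ARMC4, a dynein-arm docking protein of motile cilia, differed by 1.06, from 7.65, 8.45, 7.11, 7.89 and 7.23 CPM to 15.8, 16.5, 17.2, 16.4 and 19.2 CPM. Both groups were tight and well apart. ADAMTSL4, which binds fibrillin microfibrils of the matrix, was at 5.92, 8.64, 7.06, 7.27 and 9.72 CPM in untreated and 14.4, 16.1, 16.9, 16.2 and 16.2 CPM in knockdown libraries. HPCAL4, a calcium sensor of neurons, had untreated medians of 4.57 CPM and knockdown medians of 9.22 CPM, and EXOC3L2, a relative of an exocyst subunit, 6.62 and 13.1 CPM. Neither pair of groups overlapped. SCRG1 was at most 0.0970 CPM in untreated and 0.986 to 1.74 CPM in knockdown libraries, too few untreated reads for a fold.

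Receptors and genes of G protein signalling made up 10 members, with differences from 0.61 to 2.65. The grouping by role was made after the values were seen. KLRC2 encodes NKG2C, an activating receptor of natural killer cells. It was counted at 3.69, 3.48, 2.57, 3.46 and 0.799 CPM in untreated and at 21.2, 23.2, 24.4, 30.7 and 27.3 CPM in knockdown libraries. Untreated replicate 5 lay far under its group, and the lowest knockdown library was several times above the highest of any other group. The leukocyte genes PTPRC and CD3E did not rise with it: PTPRC was at most 0.549 CPM in the knockdown and at least 0.808 CPM in untreated cells, and CD3E was at 0 in every knockdown library. Summed over 11 leukocyte markers the level was 5.13 to 12.4 CPM in untreated and 5.14 to 6.35 CPM in knockdown libraries, and in bulk RNA fewer cells of a type and less RNA per cell cannot be told apart. RIC8A, a chaperone of G protein alpha subunits, was at 142, 126, 137, 140 and 96.5 CPM in untreated and at 301, 302, 294, 270 and 285 CPM in knockdown libraries. The groups were separate, with untreated replicate 5 the lowest. HRH1, the H1 histamine receptor, had medians of 32.6 and 58.9 CPM, and HNMT, which inactivates histamine by methylation, 17.1 and 30.3 CPM. P2RX4, an ATP-gated cation channel, had 32.1 and 57.9 CPM. In these 3 genes the knockdown libraries lay above all others.

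Genes of lipid and fatty aldehyde metabolism gave 8 members. SMPDL3B, a lipid-anchored phosphodiesterase that acts on membrane lipids and restrains Toll-like receptors, was at 8.70, 12.7, 8.39, 8.76 and 8.30 CPM in untreated and at 36.8, 33.9, 37.6, 29.1 and 36.4 CPM in knockdown libraries. Untreated replicate 2 was high for its group, but the groups were far apart, at 4.02-fold by the medians plus 0.5 CPM. ALDH3A2, which oxidises fatty aldehydes, was at 63.9, 64.5, 63.2, 62.2 and 46.3 CPM and at 123, 125, 125, 131 and 129 CPM. Apart from untreated replicate 5 the values within each group differed little. GPAT3, an acyltransferase of triglyceride synthesis, was at 8.85, 11.8, 7.38, 9.70 and 7.06 CPM and at 15.1, 18.0, 17.5, 16.2 and 17.6 CPM. PPARG, the nuclear receptor that governs fat cell genes, had medians of 12.5 and 19.8 CPM. CPT2, which imports fatty acids into mitochondria, differed by 0.61 and was among the 10 members that edgeR did not call.

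Genes of vesicle trafficking gave 4 members, with differences from 0.76 to 1.88. BET1L, a SNARE of the Golgi apparatus, was at 41.2, 41.5, 40.7, 39.8 and 35.9 CPM in untreated and at 153, 154, 152, 145 and 140 CPM in knockdown libraries. This difference, 3.69-fold by the medians plus 0.5 CPM, was large beside the spread of either group, whose SDs were 0.08 and 0.06 (log2). SYTL5, an effector of Rab27 in secretion, was at 38.8, 33.1, 37.2, 32.1 and 30.1 CPM and at 75.4, 70.7, 71.8, 70.8 and 67.2 CPM.

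Genes of the interferon, TNF and stress response gave 5 members, with differences from 0.65 to 0.99. OASL, an antiviral protein that strengthens RIG-I signalling, was at 7.67, 5.49, 7.08, 7.37 and 4.17 CPM in untreated and at 14.3, 14.6, 14.6, 16.1 and 14.4 CPM in knockdown libraries. The groups were separate, and the irradiated libraries were all between 5.16 and 7.14 CPM. TNFAIP2, a TNF-induced gene and the only member among the listed NF-κB targets, was low, at 0.791, 0.745, 1.04, 0.937 and 0.754 CPM and at 1.55, 1.26, 1.53, 1.35 and 1.70 CPM. It did not overlap with the untreated libraries but did with 1 library at 1.5 h. IFITM3, which blocks virus entry, was at 60.5, 61.7, 63.3, 77.4 and 153 CPM in untreated and at 106, 113, 108, 108 and 118 CPM in knockdown libraries. Untreated replicate 5 was above every knockdown library, so the groups overlapped through that library. With lane as a factor the edgeR log2 fold change of IFITM3 was -0.57, and IFITM3 was called lower. TRIB3, a pseudokinase induced by ATF4, was at 20.5, 41.1, 24.1, 25.9 and 14.0 CPM and at 41.0, 42.2, 45.3, 37.6 and 45.2 CPM. Untreated replicate 2 reached the knockdown range, so the groups overlapped.

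**Figure D2:**
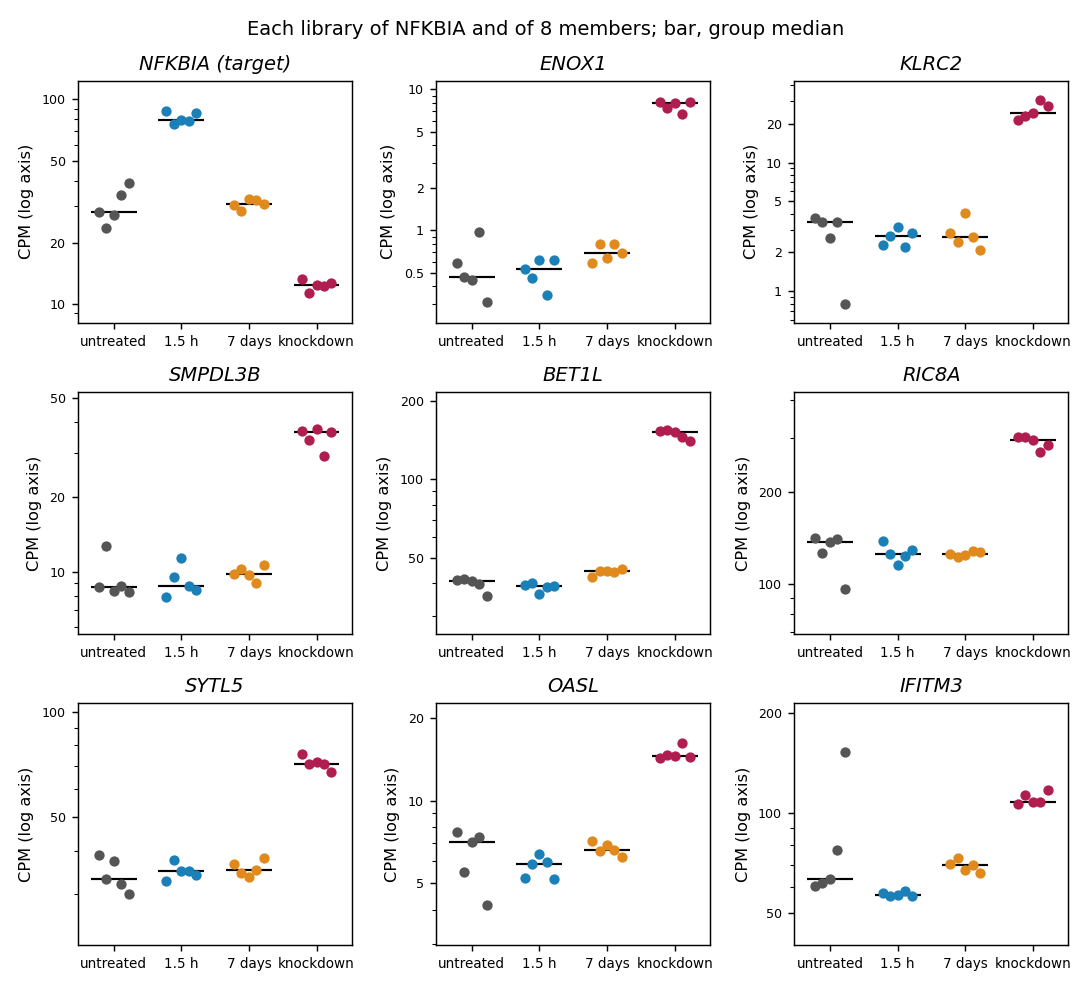
CPM on logarithmic axes in each library of the 4 groups for NFKBIA and 8 members, with each point a library and each bar the group median. NFKBIA is lowest in the knockdown, the 7 members up to OASL lie above all other libraries there, and IFITM3 does not because of untreated replicate 5.

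The remaining members were mostly of low level. The growth factor ligands FGF9, FGF18 and NRG2 had untreated medians of 1.15, 0.843 and 1.33 CPM and knockdown medians of 2.20, 1.61 and 2.38 CPM. The 3 kinesins KIF5A, KIF21B and KIF26B differed by 0.69 to 0.86, 6 neuronal genes including NPTX2, SNCG and GPM6A by 0.68 to 0.94, and 8 regulators of transcription and chromatin, among them GATA5, ETV1 and DLX1, by 0.656 to 0.999. Genes of cilia and sperm gave 5 members, and 3 glycan enzymes lay between 0.70 and 0.73. No role was given to 37 members. For 26 members the knockdown median was under 3 CPM, so that their values rest on fewer reads than those of the genes above.

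Members at the edges of the rule were close to genes outside it. Just inside the 0.6 threshold were POLI (0.603), COLEC12 (0.606) and CPT2 (0.607), and just outside were FNDC3A (0.597), HOXD3 (0.597) and GOLGA7 (0.596). Just inside the bound at 7 days were GATA5 (0.349), SNCG (0.343) and PPP1R9A (0.343). Just outside it were PRR29 (0.353), PCDHB14 (0.354) and P2RX7 (0.358), of which P2RX7 differed by 2.86 in the knockdown, more than all but 1 of the members. At 1.5 h, OGFRL1 (0.344), KLRC2 (-0.308) and C5orf15 (0.295) were just inside, and ADORA2B (0.351), HOXA11 (-0.355) and RAB8B (0.389) just outside. RAB8B, a GTPase of vesicle transport, differed by 1.94 in the knockdown. With each single library left out in turn, 55 of the 98 genes met the rule every time and 43 failed it at least once.

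To see the difference in libraries that had no part in the choice, the rule was applied without replicate k of every group, and the genes so chosen were read in the libraries left out. The rule then chose 107, 112, 110, 96 and 89 genes for k from 1 to 5. In the knockdown and untreated libraries left out, the median differences were 0.73, 0.61, 0.73, 0.88 and 0.88 on the log2 scale, against 0.02 to 0.13 over all genes tested. Above 0 were 107 of 107, 104 of 112, 108 of 110, 93 of 96 and 84 of 89 genes, beside 53.9% to 59.8% of all genes tested. The smallest median came with replicate 2 of every group left out. For all k, the medians at 1.5 h and 7 days in the libraries left out stayed between -0.10 and 0.12. The lists chosen in this way share libraries and genes with each other and with the 98 members.

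Only lane 5 carried knockdown and other libraries together, namely knockdown replicate 1 and replicates 3 to 5 at 7 days. The rule used these libraries too. Within this lane the members differed by a median of 0.65 (log2), with a range from -0.14 to 2.85, against 0.01 over all genes tested. Knockdown replicate 1 was above the 3 libraries at 7 days in 95 members, beside 44.2% of the genes tested. NRG2 (-0.14) and TTC23L (-0.05) were the members below 0. Knockdown replicate 1 was the lowest of its group in 45 members, or 45.9%, against 22.6% of the genes tested. It was also the only knockdown library on lane 5.

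**Figure D3:**
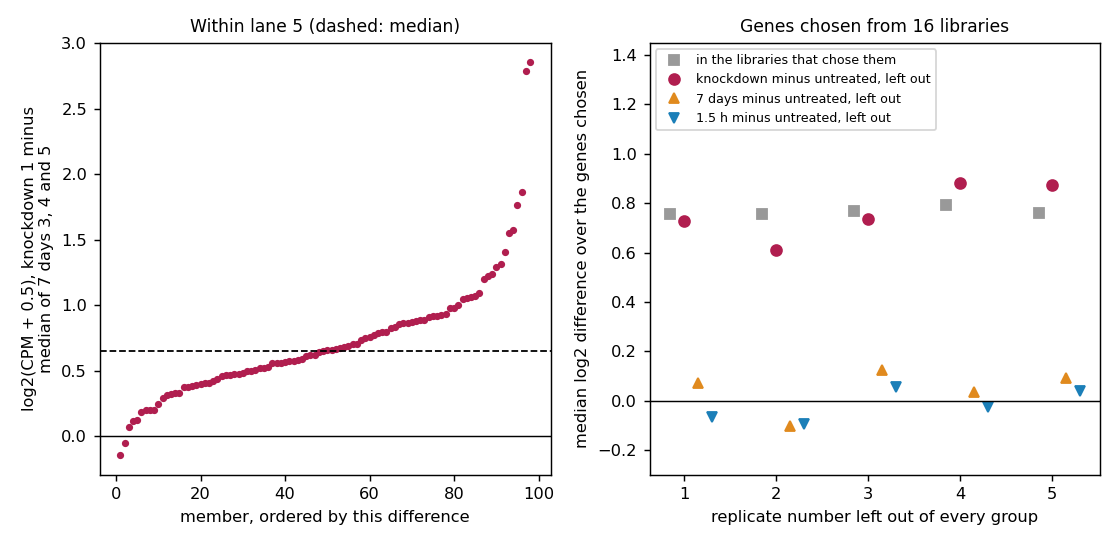
Left, the difference of log2(CPM + 0.5) between knockdown replicate 1 and the median of 3 libraries at 7 days within lane 5 (vertical axis) for the 98 members in order of that difference (horizontal axis), with the median of 0.65 as a dashed line. Right, median log2 differences (vertical axis) of the genes chosen without the replicate number on the horizontal axis, in the choosing libraries (grey) and in the libraries left out. The knockdown medians left out lie between 0.61 and 0.88 and those of the irradiated groups near 0.

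Position in the genome, which the rule did not use, was read as gene order in GENCODE 29 for 94 members. Of these, 91 were protein coding. The members lay on all autosomes except 16 and 21 and on the X chromosome, with 14 on chromosome 1 and 8 on chromosome 12. Neighbouring expressed genes were both members for SMPDL3B with XKR8, a phospholipid scramblase, on chromosome 1, and for BET1L with RIC8A on chromosome 11, where the genes point away from each other on opposite strands. Beyond RIC8A, the differences of SIRT3 (0.25), PSMD13 (0.13), ATHL1 (0.46) and IFITM2 (0.53) were under the threshold. IFITM3 follows as the next member, with 4 expressed genes between it and RIC8A.

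On chromosome 12, P2RX7 lies between the members OASL and P2RX4. P2RX7, an ATP-gated channel of inflammatory cells, was at 0.586, 0.773, 0.644, 0.162 and 1.11 CPM in untreated and at 7.83, 7.41, 7.93, 8.62 and 7.27 CPM in knockdown libraries. It is no member, was singled out after its values were seen, and was called higher (log2 fold change 3.55 ± 0.20 (SE), edgeR adjusted p = 3.73e-11). Beyond P2RX4, CAMKK2 (0.13) and ANAPC5 (-0.12) were under the threshold. KLRC2 lies in the cluster of natural killer receptors on the same chromosome. There KLRC3, KLRC4 and KLRK1, chosen likewise after their values were seen, were called higher with log2 fold changes of 2.06 ± 0.16, 2.27 ± 0.25 and 2.39 ± 0.21 (SE; edgeR adjusted p = 1.97e-09, 3.29e-07 and 1.34e-08). They differed by 0.57, 0.64 and 1.19 from untreated at 7 days and so failed the rule. KLRC genes are near-identical copies and KLRC2 overlaps KLRC1 and AC068775.1 in the annotation, so that the split of reads between them is uncertain. KLRD1, the partner of NKG2 receptors, was called higher as well (0.73 ± 0.21, adjusted p = 0.00892). Over all members, 14 of 182 neighbouring genes that were not members were called higher, or 7.69%, and 11 lower. Of all expressed genes that were not members, 4.02% were called higher. Of all genes tested, members included, 7.53% were called lower.

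**Figure D4:**
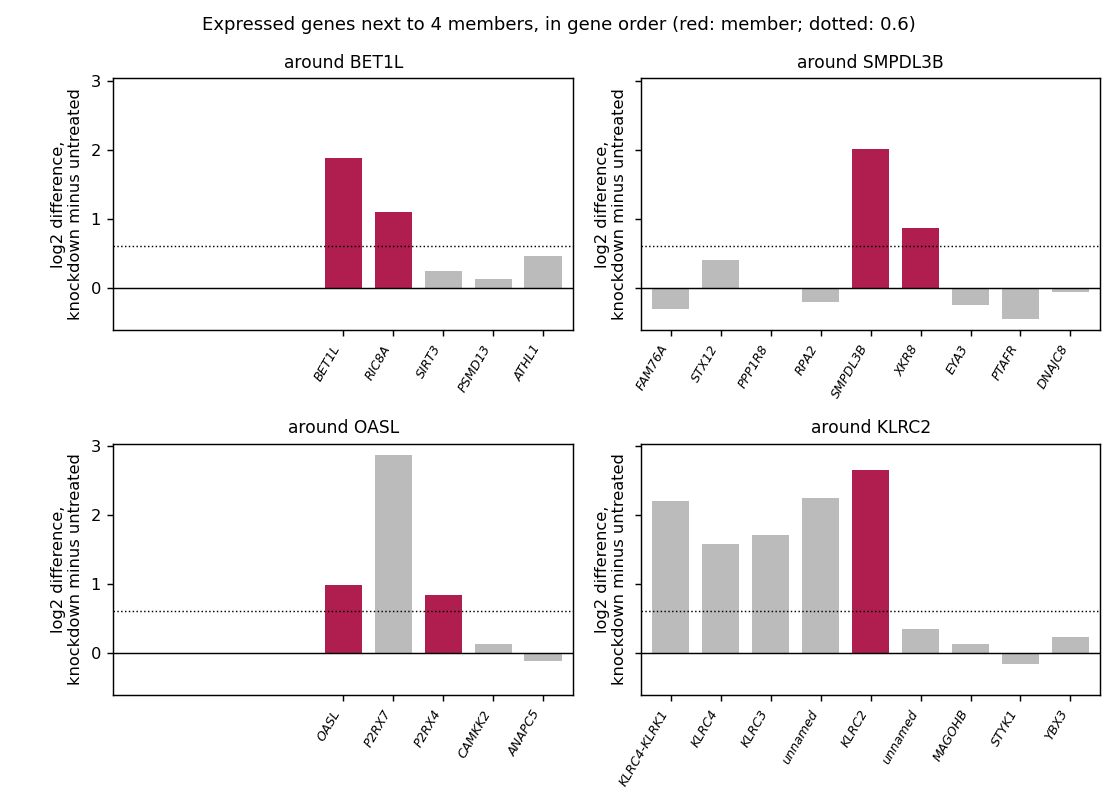
Knockdown minus untreated difference of log2(median CPM + 0.5) (vertical axis) for expressed genes in their order along the chromosome (horizontal axis) around BET1L, SMPDL3B, OASL (1 side shown) and KLRC2, with members in red and the 0.6 threshold dotted. SMPDL3B and BET1L each have 1 neighbour over the threshold, and P2RX7 stands highest between OASL and P2RX4. On 1 side of KLRC2, 4 entries are over the threshold, among them KLRC4-KLRK1, an entry named after KLRC4 and KLRK1.

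Relatives of members by sequence or function gave mixed results. RIC8B differed by 0.16 from untreated in the knockdown, against 1.10 for RIC8A, and its test gave a log2 fold change of 0.13 ± 0.05 (SE, edgeR adjusted p = 0.0492), under the threshold of 0.5. Of the other oligoadenylate synthetase genes, OAS1 was called higher (0.74 ± 0.21, adjusted p = 0.00694) and reached a still larger difference of 2.05 at 7 days, while OAS2 and OAS3 did not pass (adjusted p = 0.459 and 0.188). IFITM2 did not pass (0.06 ± 0.21, adjusted p = 0.845), with untreated replicate 5 at 47.0 CPM, the other untreated libraries at 16.2 to 20.4 CPM and the knockdown libraries at 23.0 to 30.4 CPM. Without untreated replicate 5 its edgeR log2 fold change was 0.46 ± 0.07 (adjusted p = 3.25e-05), still under the threshold of 0.5. With lane as a factor IFITM2 was called lower (-0.90 ± 0.23, adjusted p = 0.00569) and OAS1 was not called (-0.37 ± 0.55, adjusted p = 0.647). P2RX5 was called higher (0.96 ± 0.10, adjusted p = 2.17e-07) and stood 1.08 above untreated at 7 days. HRH2 did not pass (-0.11 ± 0.18, adjusted p = 0.667). Other annotated genes overlap 58 members, and 19 members overlap a gene of the count table, for which the strand setting of the counting is not given in the sources used here.

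The pathway that IκBα restrains was read from lists of NF-κB genes, chosen with earlier results of these data known. Of 64 listed NF-κB targets that were tested, 8 (12.5%) were called higher and 8 lower, beside 5.18% and 7.53% of all genes tested. The median log2 fold change of the targets was -0.05, against -0.01 for all genes. Among the targets that were not members, the largest increases were in IL1A (2.08 ± 0.22 (SE), edgeR adjusted p = 2.01e-07), CFB (1.47 ± 0.11, 1.85e-09) and BDKRB1 (1.46 ± 0.44, 0.0129). These genes encode a cytokine, a complement protease and a kinin receptor. BDKRB1 had medians of at most 0.399 CPM, and its call was lost without untreated replicates 2 and 5 (adjusted p = 0.0967) and with lane as a factor. The largest decreases were in the gelatinase MMP9 (-2.28 ± 0.06, 1.10e-16), the cytokine IL34 (-2.24 ± 0.22, 1.05e-07) and the chemokine CCL2 (-1.19 ± 0.11, 4.42e-08). IL1A was at a median of 0.495 CPM in untreated, 9.62 CPM at 7 days and 2.47 CPM in knockdown libraries, so that it was outside the rule. The number of targets called higher was 4 when at least 10 counts were required in every library and 5 when only knockdown and untreated libraries were fitted.

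Of 44 components of the pathway, 1 was called higher and 5 lower, beside 5.18% and 7.53% of all genes tested, and none was a member. IRAK2, a kinase of Toll-like receptor signalling, rose (0.92 ± 0.12 (SE), edgeR adjusted p = 2.82e-06). NFKBIA (-1.36 ± 0.11), the ubiquitin ligase BIRC3 (-0.72 ± 0.08, 8.46e-07) and PDLIM2 (-0.67 ± 0.08, 1.06e-06), which promotes p65 breakdown, fell most, though PDLIM2 was not called with lane as a factor (adjusted p = 0.402). Of 41 interferon-stimulated genes tested, 11 were called higher and 0 lower by edgeR (22 and 0 at an unadjusted p under 0.05; DESeq2, 9 and 0), with a median log2 fold change of 0.21 against -0.01 for all genes tested. The 11 were 26.8% of that list, where 5.18% of all genes tested were called higher. OASL and IFITM3 of that list were members, where 98 of all 14992 genes tested were members, and IFITM3 was not called. Of 50 genes of the ATF4 and amino acid response, 1 was called higher, the member TRIB3, and 3 lower. In all, 4 of the 98 members were in any of 18 gene lists. The share of all genes tested that these lists hold was not counted, so nothing is read from this number.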

How the data were processed

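RNA from U2OS cells was sequenced in 20 stranded mRNA libraries. The submitters' processing notes name bcl2fastq, Trimmomatic, STAR 2.4.2a and hg19. The counter, annotation and strand setting are not given in the sources used here. The authors deposited raw counts per gene with gene lengths, and 1679 of 20314 genes have no symbol. CPM used column totals and a pseudocount of 0.5. The study calls the replicates biological, but the labels do not say how they were kept apart, so p-values measure the spread between these libraries, which may be technical.

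Counts were fitted with edgeR 4.0.16 in R 4.3.3 (filterByExpr with a minimum count of 10, TMM, 1 quasi-likelihood model of 4 groups). Called genes had a log2 fold change over 0.5 in size and a Benjamini-Hochberg adjusted p under 0.05. DESeq2 1.42.0, other scalings, filters, blocks and left-out libraries were alternatives. The procedure was tested on simulated data. The members and lists were chosen with earlier results of these data known. Named were NFKBIA, the 15 members with a symbol, a knockdown median of at least 5 CPM and the largest differences, members in gene lists or with a κB match, those nearest the threshold, and the 3 most changed NF-κB genes each way; others were chosen after values were seen. Gene order came from GENCODE 29 without coordinates, because its build is not hg19, and promoter sequences from RefSeq.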

Additional observations from a re-analysis of the deposited data

Results flagged for a closer look

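Values that stood apart from the other 4 libraries of their group were looked for in 74 groups of libraries, and 8 were found where the gap to the nearest library exceeded 0.71 of the range. Chance flags about 1 in 20 such groups. Untreated replicate 2 was the highest untreated library for SMPDL3B (12.7 CPM, next 8.76) and EXOC3L2 (8.45 CPM, next 6.81). Untreated replicate 5 was the lowest for ALDH3A2 (46.3 CPM, next 62.2) and CFB (1.91 CPM, next 3.27) and the highest for IFITM3 (153 CPM, next 77.4). Knockdown replicate 4 was the highest knockdown library for OASL (16.1 CPM, next 14.6). At 1.5 h, replicate 3 had the highest summed level of the members (2928 CPM, next 2780) and replicate 1 the largest total count (39546228). Of the 8, untreated replicate 5 gave 3 and untreated replicate 2 gave 2.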

How the results depend on the processing

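The count of members was 41 with a threshold of 0.8, 69 with bounds of 0.25, 64 with a minimum of 5 CPM, 95 with mean CPM (72 shared with the 98), 87 with TMM library sizes (79 shared) and 88 with a pseudocount of 1 (77 shared). It ranged from 89 to 112 with a replicate number or a single library left out, and was 103, with 79 shared, without untreated replicates 2 and 5, an alternative chosen after seeing the data. Members called higher ranged from 85 to 92 with 1 knockdown or untreated library left out and numbered 40 with lane as a factor, where all genes called higher were 1994 and lower 2094, against 777 and 1129. The cause of these changes with lane was not tested. In that fit the difference of IFITM3 turned to -0.57. With library size alone, 971 genes were called higher and 924 lower. Left-out libraries gave 723 to 913 genes higher and 1039 to 1344 lower, 6 to 9 NF-κB targets higher and 7 to 10 lower, and a log2 fold change of NFKBIA from -1.44 to -1.25. NF-κB targets called higher were 4 with at least 10 counts in every library and 5 with knockdown and untreated libraries only. NFKBIA stayed lower in all 19 alternatives, with adjusted p from 1.78e-30 to 3.44e-05.

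Same-numbered untreated and knockdown libraries deviated with correlations of 0.098, -0.012, 0.069, -0.254 and 0.085, so the numbers did not pair them, and only untreated replicates 1 and 3 correlated best with their own number. With the replicate block, 777 genes were called higher and 1072 lower, and 90 members higher. Median differences in held-out libraries were 0.76 with mean CPM and 0.81 with TMM library sizes, against 0.73. Within lane 5 they were 0.65 with TMM and 0.60 with a pseudocount of 1. The 26 members under 3 CPM in the knockdown rest on fewer reads, and the smallest difference detectable among them was not measured.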

Other observations

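In 26 of the 98 members untreated replicate 2 and replicate 3 at 1.5 h were both the highest libraries of their groups, which held for 10.9% of the genes tested. In 8 members both exceeded the next library of their group by at least 1.2 times, against 1.07% of the genes tested. These 8 were ARHGEF2, FKBP9, GPAT3, IZUMO1, KIF21B, OGFRL1, RAB39B and TRIB3. For KIF21B these libraries were at 48.9 and 38.8 CPM, where the group medians were 23.0 and 23.6 CPM. For OGFRL1 they were at 115 and 117 CPM, for FKBP9 at 214 and 184 CPM, and for IZUMO1 at 1.46 and 1.07 CPM. The pair of libraries and the ratio were chosen after the values were seen, and what the 2 libraries share was not tested.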
